A study of Solanum lycopersicum with 6 samples.

Results

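Transcripts of the core abscisic acid (ABA) signalling module were followed in the fruit wall (pericarp) of tomato, Solanum lycopersicum cultivar Ailsa Craig, in plants that overexpress the histone demethylase JMJ6 (JMJ6-OE) and in wild-type plants (WT). Fruit of both genotypes was taken at 37 days after anthesis, and each genotype had 3 RNA sequencing libraries. The genes were taken by name: every row of the deposited table described as an abscisic acid receptor, a protein phosphatase 2C, or a kinase of the SRK2 or SnRK2 kind. This gave 132 of 36224 rows, made up of 14 ABA receptors, 115 protein phosphatases 2C (PP2C) and 3 SRK2 kinases. The transgenic plants were of the same cultivar and grown in the same greenhouse conditions as WT. The promoter of the transgene and the number of independent lines behind the 3 JMJ6-OE libraries were not given in the sources used here. Nor do the labels say that replicates came from separate plants, so p-values measure only the spread between these libraries, which may be technical.

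ABA is perceived by small soluble receptors of the PYR/PYL/RCAR family. With the hormone bound, a receptor can dock onto a PP2C of clade A and block it, which need not hold for every member of the clade. In the absence of ABA these phosphatases keep SnRK2 kinases dephosphorylated and inactive, and their inhibition frees the kinases to phosphorylate bZIP transcription factors and ion channels. Receptors therefore act as positive regulators, clade A phosphatases as negative regulators and co-receptors, and SnRK2 kinases as the output step. Most PP2C genes of a plant lie outside clade A and serve other pathways, among them wound and mitogen-activated protein kinase signalling, meristem receptor signalling and light harvesting. In tomato fruit, ABA is known to accumulate around the onset of ripening, ahead of the ethylene burst.

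The libraries held 30508225 to 36299263 counts in JMJ6-OE and 28539410 to 36487547 counts in WT. The 132 rows took 0.303 to 0.338% of a library's counts. The files do not pair JMJ6 with an identifier. The only row on chromosome 6, where the reference annotation places JMJ6, that is described as a demethylase of its JmjC family was Solyc06g008490.3. The table describes it as a putative demethylase JMJ16 with the symbol JMJ703, so whether it is JMJ6 is uncertain and it is a weak check of the overexpression. It had 31.5, 37.4 and 41.3 CPM in JMJ6-OE and 27.0, 23.5 and 25.5 CPM in WT (log2 fold change 0.54 ± 0.12, adjusted p = 0.014), and 4 of 6 fits that left out 1 library called it. CPM is counts per 1000000 of a library size scaled by TMM, which sets most genes level between libraries. Fruit of the same age differed widely in transcripts of ripening. All 6 ripening genes used as stage markers were higher in JMJ6-OE, and their summed level was 7814 to 13190 FPKM in JMJ6-OE and 641.7 to 1002 FPKM in WT. FPKM, reads scaled to transcript length and library size, allows genes of different length to be compared, and was also TMM-scaled here. For every difference described, the transgene and the ripening state cannot be told apart. In bulk tissue, neither can fewer cells of a type and less RNA per cell.

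Of the 132 rows, 35 had no count in any library, 11 were counted below the filter on low counts, and 86 were tested. The 86 are the better expressed genes of the list, not the whole list. The quasi-likelihood test of edgeR, adjusted by Benjamini and Hochberg's method over all 20143 genes tested, called 34 members at an adjusted p under 0.05, which is 39.5% of those tested beside a background of 34.3% of all genes. Of these, 14 were higher in JMJ6-OE, 16.3% against a background of 17.5%, and 20 were lower, 23.3% against a background of 16.8%. The median log2 fold change of the 86 was -0.05, and that of all genes was -0.01. Over both directions the share called was thus near the background. Values of the genotypes did not overlap for 47 of the 86 members, beside 51.4% of all genes. Under upper-quartile scaling the calls were 11 higher and 25 lower. Many of the small increases were not called with fewer libraries: 6 members were called higher without JMJ6-OE replicate 2, 8 without JMJ6-OE replicate 3, and 7 each without WT replicate 2 or WT replicate 3. Calls over all genes fell as well, to 2027 higher without JMJ6-OE replicate 2, against 3517 with all libraries. All 6 fits that left out 1 library called 6 of the 14 increases and 13 of the 20 decreases.

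The called receptors were all lower. Of 9 receptor rows tested, 5 fell in JMJ6-OE, 55.6% beside a background of 16.8%, and none rose. Among the 9, 8 of 9 had a negative log2 fold change, with a median of -0.88. For increases the count was also 0 at an unadjusted p under 0.05, by DESeq2 and by limma-voom. DESeq2 called 7 of the 9 lower, and 3851 lower over all genes. The receptors that fell were 3 rows of PYL4 type and both rows described as PYR1-like. In Arabidopsis PYR1 and PYL1 are dimeric receptors, which need ABA to release their partner, and PYL4, PYL8 and PYL9 are monomeric.

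The PYL4 row Solyc06g050500.2 showed the largest decrease among the 9 receptors found by description. It had 7.62, 6.39 and 10.01 CPM in the JMJ6-OE libraries and 35.1, 30.6 and 32.7 CPM in the WT libraries. Every JMJ6-OE library lay far below every WT library. The means were 8.01 ± 1.84 CPM in JMJ6-OE and 32.8 ± 2.29 CPM in WT (SD, n = 3 each), a level 4.10-fold lower in JMJ6-OE (a log2 change of -2.04 ± 0.17 SE, adjusted p = 0.00035 by edgeR's quasi-likelihood test). The call held in all 6 fits that left out 1 library.

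Of the PYR1-like receptors, Solyc06g061180.1 had 7.97, 3.86 and 3.60 CPM in JMJ6-OE and 14.4, 12.8 and 16.6 CPM in WT (log2 fold change -1.50 ± 0.31, adjusted p = 0.011). JMJ6-OE replicate 1 was the highest of its group but still below all WT libraries. The other PYR1-like row, Solyc08g076960.1, had 4.18, 3.78 and 3.74 CPM in JMJ6-OE and 8.29, 7.37 and 5.90 CPM in WT (log2 fold change -0.88 ± 0.18, adjusted p = 0.0093). Its JMJ6-OE values were close together, and WT replicate 3 came nearest to them. Both calls held in every fit that left out a library.

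A further pair of PYL4 type fell. Solyc09g015380.1 had 2.88, 4.67 and 7.27 CPM in JMJ6-OE and 9.84, 16.4 and 13.2 CPM in WT (log2 fold change -1.42 ± 0.35, adjusted p = 0.020). The groups did not overlap, but the spread was wide in both, and the call did not survive the loss of JMJ6-OE replicate 2 (adjusted p = 0.079) or of WT replicate 2 (adjusted p = 0.058). Solyc10g085310.1, a weakly expressed row, had 1.61, 1.72 and 1.82 CPM in JMJ6-OE and 4.19, 3.43 and 4.09 CPM in WT (log2 fold change -1.18 ± 0.20, adjusted p = 0.0047). This decrease was called without any 1 library.

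**Figure D1:**
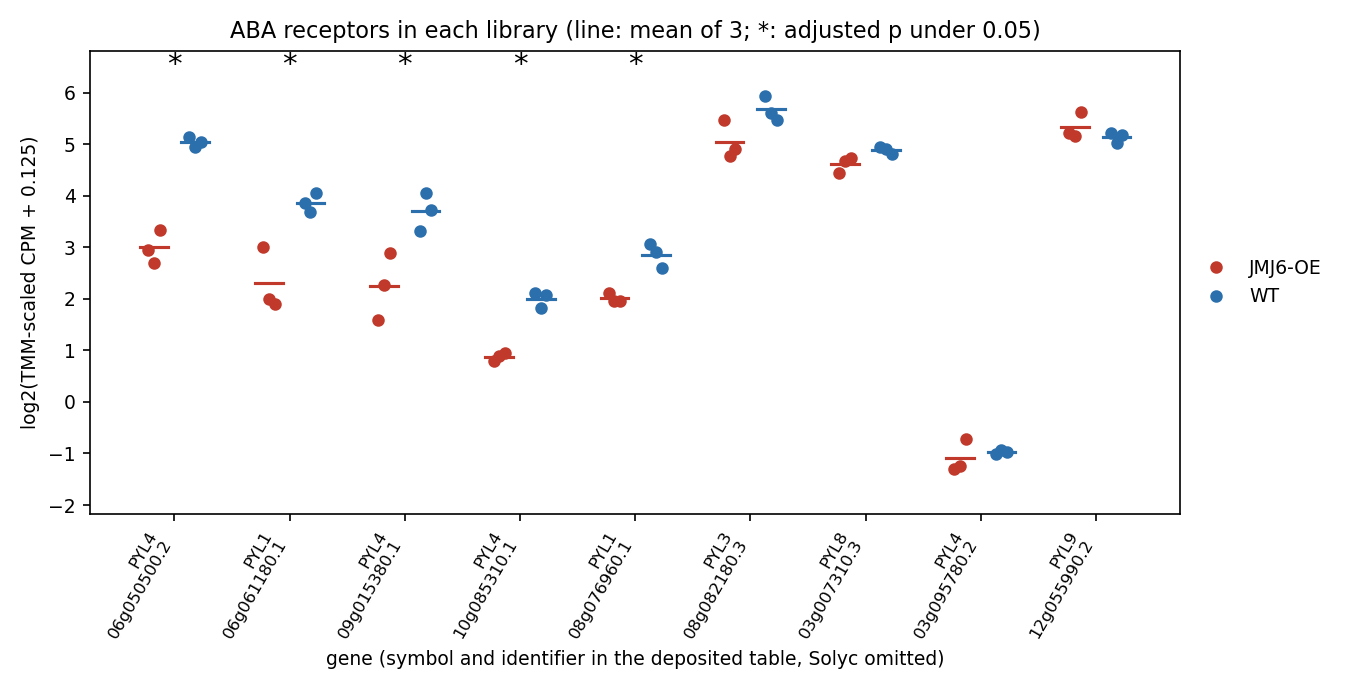
Level of the 9 tested ABA receptors in each library, as log2 of TMM-scaled CPM plus 0.125, with JMJ6-OE in red left of WT in blue. Points are libraries, lines are means of the 3, and asterisks mark an adjusted p under 0.05. In the 5 marked receptors every JMJ6-OE point lies below every WT point, while PYL9 and the weakest PYL4 row overlap.

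The 4 receptors without a call were the PYL8 and PYL9 rows and the weakest PYL4 row. Solyc08g082180.3, which the table describes as PYL9 and gives the symbol PYL3, had 44.5, 27.1 and 29.8 CPM in JMJ6-OE and 61.5, 48.9 and 44.5 CPM in WT. The difference missed the threshold (log2 fold change -0.61 ± 0.21, adjusted p = 0.062), and JMJ6-OE replicate 1 all but touched WT replicate 3. PYL8 (Solyc03g007310.3) had 21.6, 25.6 and 26.5 CPM in JMJ6-OE and 30.5, 29.8 and 27.96 CPM in WT (log2 fold change -0.26 ± 0.11, adjusted p = 0.10). PYL9 (Solyc12g055990.2) had 36.9, 35.9 and 49.6 CPM in JMJ6-OE and 37.0, 32.4 and 36.4 CPM in WT (log2 fold change 0.21 ± 0.14, adjusted p = 0.28), and its groups overlapped. The PYL4 row Solyc03g095780.2 stayed under 0.5 CPM in every library (log2 fold change -0.14 ± 0.42, adjusted p = 0.82), too low to show a moderate difference at this depth.

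Compared per length, the order of the receptors differed between genotypes. In JMJ6-OE the highest was Solyc08g082180.3 at 40.6 ± 13.8 FPKM, followed by PYL9 at 34.0 ± 4.83 FPKM and PYL8 at 16.5 ± 0.83 FPKM. The PYL4 row Solyc06g050500.2 came the fourth, at 8.18 ± 1.61 FPKM in JMJ6-OE. In WT the same PYL4 row was the second, at 38.3 ± 1.63 FPKM, behind Solyc08g082180.3 at 69.6 ± 10.3 FPKM and just ahead of PYL9 at 33.6 ± 1.71 FPKM. The first and the second place of JMJ6-OE overlapped in their spread, as did the fourth to the sixth, which were held by Solyc06g050500.2, Solyc06g061180.1 (7.65 ± 4.14 FPKM) and Solyc09g015380.1 (7.5 ± 2.94 FPKM). In WT Solyc06g061180.1 at 24.2 ± 3.08 FPKM and Solyc09g015380.1 at 23.3 ± 6.42 FPKM overlapped with PYL8 at 22.6 ± 0.94 FPKM. These levels are the deposited FPKM, as means ± SD of 3 libraries.

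Summed over all 14 receptor rows, the level per length was 139.5, 114.2 and 139.1 FPKM in JMJ6-OE and 230.5, 210.3 and 208.6 FPKM in WT after TMM scaling. The ratio of the means was 0.605. The 5 receptors called lower together held 33.2 ± 4.02 FPKM in JMJ6-OE and 96.7 ± 1.37 FPKM in WT. The remaining receptors held 97.7 ± 10.8 FPKM in JMJ6-OE and 119.8 ± 13.3 FPKM in WT. The share of receptor transcript that came from the 5 was thus 25.4 ± 1.02% in JMJ6-OE and 44.8 ± 2.96% in WT. Since the 5 were picked for being lower, these shares describe them and test nothing.

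Of the 5 receptor rows not tested, 2 of PYL4-like type had a few counts. Solyc10g076410.1 had 3, 0 and 0 counts in JMJ6-OE and 19, 14 and 8 counts in WT. Solyc05g052420.2 had 0, 0 and 4 counts in JMJ6-OE and 6, 10 and 8 counts in WT. Both had more counts in each WT library than in any JMJ6-OE library, at levels too low to test. Solyc02g076770.1, Solyc12g095970.2 and Solyc08g065410.2 had no count. A count of 0 allows a level of up to 0.0822 to 0.105 CPM by library, here with unscaled library sizes and for counting error only. The table's orthology term for these receptors, K14496, also covers a receptor row whose description is worded otherwise, Solyc01g095700.3. This row is described as regulatory component of ABA receptor3-like and has the symbol PYL3. Named here after its values were seen, it had 12, 5.47 and 7.23 CPM in JMJ6-OE and 37.8, 30.1 and 33.6 CPM in WT (log2 fold change -2.04 ± 0.28, adjusted p = 0.0026). With it, 6 of 10 tested K14496 rows were called lower by edgeR and by limma-voom and 8 by DESeq2. The row was known to be lower when it was added, which raises these counts. Over all genes edgeR called 3394 lower, the background of 16.8%, limma-voom 3416 and DESeq2 3851. None of the 10 rows was called higher by these tools, with 0 higher at an unadjusted p under 0.05.

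For the phosphatases of the ABA pathway, 2 definitions of clade A were used. A first one went by the number in the description (such as PP2C 37 or PP2C 75, the Arabidopsis numbers of AHG3 and AHG1, or the rice numbers 50, 51 and 53) and took 18 rows. Of its 12 tested rows, 3 rose and 3 fell, 25% in each direction beside the background of 17.5% higher and 16.8% lower. The number proved ambiguous, as 6 of the 18 rows lack the table's orthology term for ABA phosphatases, K14497, and 5 of the 6 carry the symbol At3g63340, an Arabidopsis locus that is also numbered 51, or no symbol. The orthology term, chosen after these rows had been seen, takes 15 members, of which 12 are shared. Of its 11 tested rows, 4 rose in JMJ6-OE, 1 fell and 6 were not called. These are 36.4% higher and 9.09% lower beside the same background of 17.5% and 16.8%, and the median log2 fold change was 0.19. The rows with the term are described first.

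The row with the largest increase was Solyc03g006960.3, of AHG1 type (PP2C 75). In Arabidopsis AHG1 is a phosphatase of seeds that holds back ABA responses during germination. It had 148.5, 288.5 and 414.0 CPM in JMJ6-OE and 33.2, 52.6 and 35.9 CPM in WT. The JMJ6-OE libraries varied widely among themselves, but the lowest of them was far above the highest WT library. The means were 283.7 ± 132.8 CPM in JMJ6-OE and 40.5 ± 10.5 CPM in WT, a 6.99-fold higher level in JMJ6-OE (a log2 change of 2.81 ± 0.41, adjusted p = 0.0043). Without any 1 library the log2 fold change was 2.43 to 3.12 and the call held. Its 3 neighbours by identifier, Solyc03g006930.2, Solyc03g006940.2 and Solyc03g006950.2, are also AHG1 types and had no count in any library.

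Some seed transcripts were also higher in JMJ6-OE. Of 37 rows for seed storage proteins and oleosins, 18 had no count, among them all 2S storage proteins, and 6 were tested, of which 2 were called higher in JMJ6-OE and 4 were not called, 3 of them with a negative log2 fold change. The 2 called rows are 33.3% of those tested, beside the background of 17.5% higher. The 37 rows summed to 69.8 to 161.1 FPKM in JMJ6-OE and 16.4 to 25.2 FPKM in WT after TMM scaling. In the deposited FPKM an oleosin 1-like row, Solyc06g060840.1, gave 105.0 of a mean sum of 112.7 FPKM in JMJ6-OE and 14.1 of 21.1 FPKM in WT. This row had 24.8, 51.8 and 62.0 CPM in JMJ6-OE and 4.13, 7.42 and 4.40 CPM in WT. The other called row was a 12S seed storage protein, Solyc01g104110.3 (log2 fold change 4.57 ± 0.67, adjusted p = 0.0027). It had 2.85, 4.31 and 4.56 CPM in JMJ6-OE and 0, 0.25 and 0.21 CPM in WT. JMJ6-OE replicate 1 was the lowest of its group in the AHG1 type, in the oleosin 1-like row and in the summed ripening markers. The ripening marker PG2 had 4063, 5102 and 3869 CPM in JMJ6-OE, so replicate 3 was the lowest there. What lies behind these orders of the libraries was not tested. The part of seed tissue in the AHG1-type difference was not tested.

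Both rows with the symbol PP2C51, the name of a rice ABA phosphatase that in rice promotes germination, rose, by 3.18-fold and 3.08-fold. Solyc03g007230.3 had 22.6, 35.04 and 30.7 CPM in JMJ6-OE and 9.54, 7.77 and 10.5 CPM in WT (log2 fold change 1.67 ± 0.19, adjusted p = 0.0010). Solyc06g051940.3 had 10.4, 11 and 7.53 CPM in JMJ6-OE and 3.58, 3.33 and 2.47 CPM in WT (log2 fold change 1.62 ± 0.22, adjusted p = 0.0019). In both, every JMJ6-OE library exceeded every WT library, and the calls held without any 1 library.

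The 3 rows with the symbol PP2CA differed among themselves. PP2CA, also called AHG3, is a main brake on ABA responses in Arabidopsis seeds and guard cells. The AHG3 homolog Solyc03g096670.3 had 58.1, 62.8 and 65.03 CPM in JMJ6-OE and 44.1, 43.2 and 50.4 CPM in WT (log2 fold change 0.43 ± 0.10, adjusted p = 0.012). This small increase missed the threshold without JMJ6-OE replicate 2 and without WT replicate 2 (adjusted p = 0.052 in each). The PP2C 37 row Solyc05g052980.3 fell, with 94.9, 111.8 and 114.6 CPM in JMJ6-OE and 150.9, 170.2 and 159.2 CPM in WT (log2 fold change -0.58 ± 0.10, adjusted p = 0.0052), and was called without any 1 library. In the third, Solyc06g076400.3, the groups overlapped (log2 fold change -0.04 ± 0.14, adjusted p = 0.85).

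The 5 other rows with the term were not called. The ABI2 homolog Solyc03g121880.3 (symbol HAB1), of the kind that carries the classical ABA-insensitive mutations in Arabidopsis, had 93.0, 120.6 and 131.2 CPM in JMJ6-OE and 109.2, 100.9 and 102.6 CPM in WT (log2 fold change 0.14 ± 0.13, adjusted p = 0.44). Of the rows with the symbol PP2C06, Solyc07g040990.3 overlapped between genotypes (log2 fold change -0.04 ± 0.09, adjusted p = 0.75). Solyc12g096020.2 had 42.6, 44.1 and 41.5 CPM in JMJ6-OE and 50.7, 51.9 and 48.3 CPM in WT, a difference just short of the threshold (log2 fold change -0.24 ± 0.08, adjusted p = 0.051). The adjacent pair Solyc08g062640.3 and Solyc08g062650.2 had log2 fold changes of 0.19 ± 0.14 (adjusted p = 0.34) and 0.25 ± 0.10 (adjusted p = 0.10). Reads of near-identical copies could have been split between such neighbours, since the counting is not described.

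Of the 4 tested rows that were clade A by number alone, 2 fell, beside a background of 16.8% of all genes lower. These 4 rows were set apart after the data were seen. Solyc06g084100.3 (At3g63340) had 0.77, 1.07 and 1.22 CPM in JMJ6-OE and 4.29, 3.08 and 3.79 CPM in WT (log2 fold change -1.86 ± 0.27, adjusted p = 0.0025). Solyc02g092750.3 (PP2C 78, symbol Os12g0580900) had 15.5, 17.0 and 14.6 CPM in JMJ6-OE and 23.2, 22.9 and 34.2 CPM in WT (log2 fold change -0.77 ± 0.17, adjusted p = 0.013). Both decreases were called without any 1 library. Solyc06g084110.1 (log2 fold change -0.97 ± 0.55, adjusted p = 0.21) and Solyc09g065655.1 (0.46 ± 0.28, adjusted p = 0.24) were under 2 CPM in every library and were not called.

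The kinases at the output step showed no call. SRK2I (Solyc02g090390.3) had 141.3, 137.1 and 164.3 CPM in JMJ6-OE and 175.5, 158.0 and 155.1 CPM in WT (log2 fold change -0.14 ± 0.10, adjusted p = 0.32). SRK2E (Solyc01g108280.3), whose Arabidopsis counterpart OST1 closes stomata in response to ABA, had 81.3, 77.3 and 87.8 CPM in JMJ6-OE and 80.7, 81.8 and 86.5 CPM in WT (log2 fold change -0.02 ± 0.08, adjusted p = 0.91). SRK2B (Solyc01g103940.3), of a group that in Arabidopsis is not activated by ABA, had 151.5, 131.8 and 128.0 CPM in JMJ6-OE and 123.5, 128.7 and 121.2 CPM in WT (log2 fold change 0.14 ± 0.09, adjusted p = 0.28). All 3 overlapped between genotypes, and 0 were past an unadjusted p of 0.05 or called by DESeq2 or limma-voom. Of the rows described as SAPK kinases, the rice name, 3 were tested and 0 called by these tools, with 2 past an unadjusted p of 0.05, both higher in JMJ6-OE. The table's orthology term for SnRK2 kinases, K14498, takes in a further row, Solyc04g012160.3, described as an SNF1-related kinase with the symbol SAPK2. Named after its values were seen, it had 47.1, 71.1 and 72.7 CPM in JMJ6-OE and 34.2, 43.9 and 49.8 CPM in WT (log2 fold change 0.58 ± 0.20, adjusted p = 0.065), and its groups overlapped. Over all 7 tested K14498 rows edgeR and limma-voom called 0, DESeq2 called 1 higher, and 3 were past an unadjusted p of 0.05, all higher in JMJ6-OE.

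**Figure D2:**
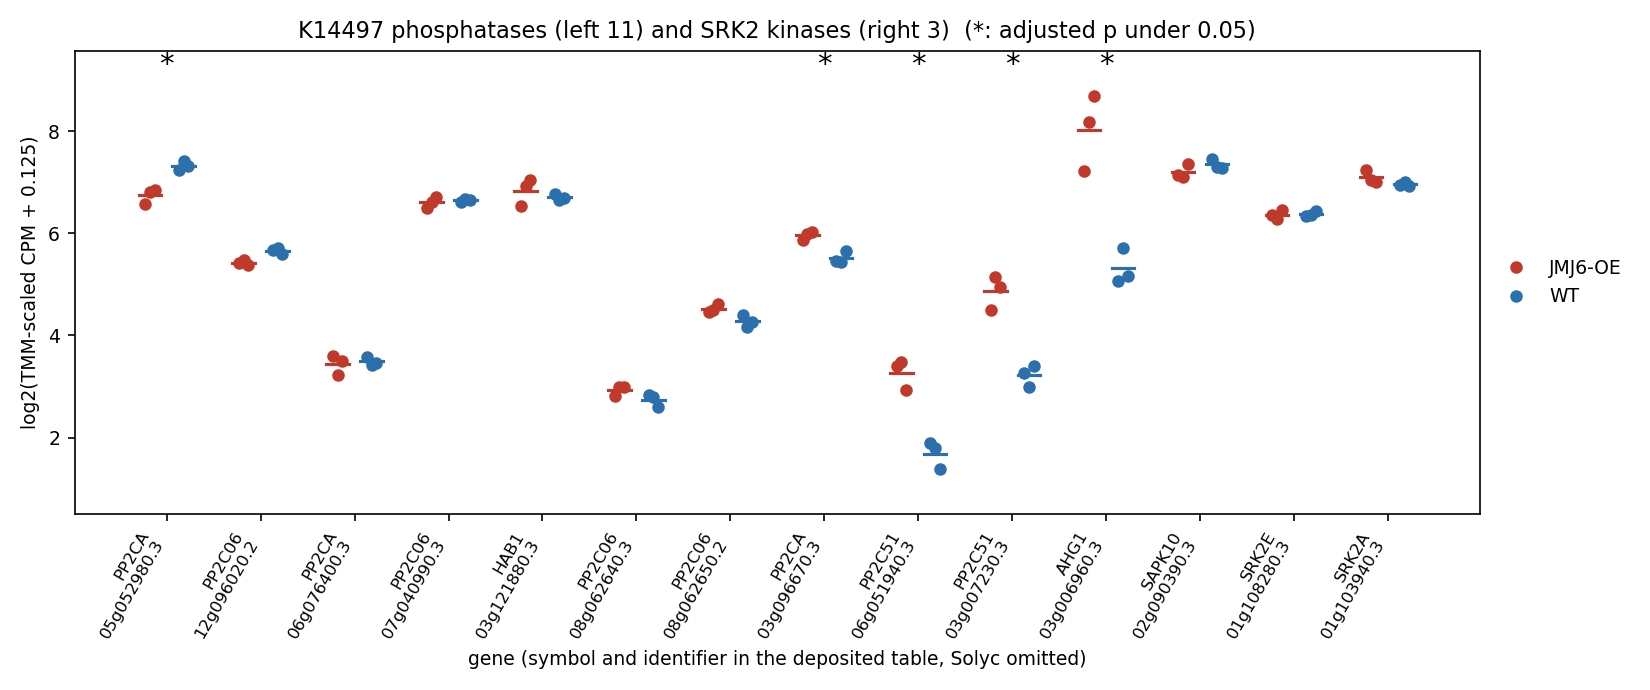
Level of the 11 tested phosphatases with the orthology term K14497 and, at the right, the 3 SRK2 kinases in each library, as log2 of TMM-scaled CPM plus 0.125, with JMJ6-OE in red left of WT in blue. Points are libraries, lines are means of the 3, and asterisks mark an adjusted p under 0.05. AHG1 and both PP2C51 rows stand higher in JMJ6-OE, the leftmost PP2CA row lower, and the kinases overlap.

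Summed per length, the K14497 phosphatases reached 308.2, 415.1 and 490.3 FPKM in JMJ6-OE and 281.3, 299.1 and 286.2 FPKM in WT after TMM scaling. The higher sum in JMJ6-OE came from 1 gene, the AHG1 type. Without the AHG1 type the sums were 255.4 ± 22.3 FPKM in JMJ6-OE and 267.5 ± 3.79 FPKM in WT and overlapped. The AHG1 type supplied 25.3, 36.5 and 44.4% of the phosphatase FPKM in JMJ6-OE and 6.20, 9.24 and 6.60% in WT. The 3 SRK2 kinases summed to 190.9 ± 9.02 FPKM in JMJ6-OE and 190.8 ± 4.61 FPKM in WT. All 9 rows with the kinase term K14498 summed to 302.0 ± 14.8 FPKM in JMJ6-OE and 279.5 ± 5.51 FPKM in WT, with no overlap. The deposited FPKM before TMM scaling set JMJ6-OE lower relative to WT, since the scaling factors averaged 1.07 in JMJ6-OE and 0.94 in WT. On that scale the receptors summed to 122.9 ± 16.9 FPKM in JMJ6-OE and 230.8 ± 7.66 FPKM in WT, and the K14497 phosphatases overlapped between genotypes. The phosphatases without the AHG1 type then summed to 238.5 ± 7.18 FPKM in JMJ6-OE and 285.6 ± 11.8 FPKM in WT, and the 3 SRK2 kinases to 179.0 ± 15.7 FPKM in JMJ6-OE and 203.5 ± 4.50 FPKM in WT, both with no overlap. All K14498 rows then stood the other way round, at 282.5 ± 5.56 FPKM in JMJ6-OE and 298.4 ± 13.0 FPKM in WT, and overlapped.

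Within a library, receptor FPKM divided by K14497 phosphatase FPKM is free of library scaling. This ratio was 0.453, 0.275 and 0.284 in JMJ6-OE and 0.820, 0.703 and 0.729 in WT, with no overlap. Leaving the AHG1 type out of the phosphatases, it was 0.517 ± 0.087 in JMJ6-OE and 0.810 ± 0.055 in WT, still with no overlap. Transcript ratios of this kind say nothing of the proteins, of their hormone or of which phosphatases the receptors block.

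**Figure D3:**
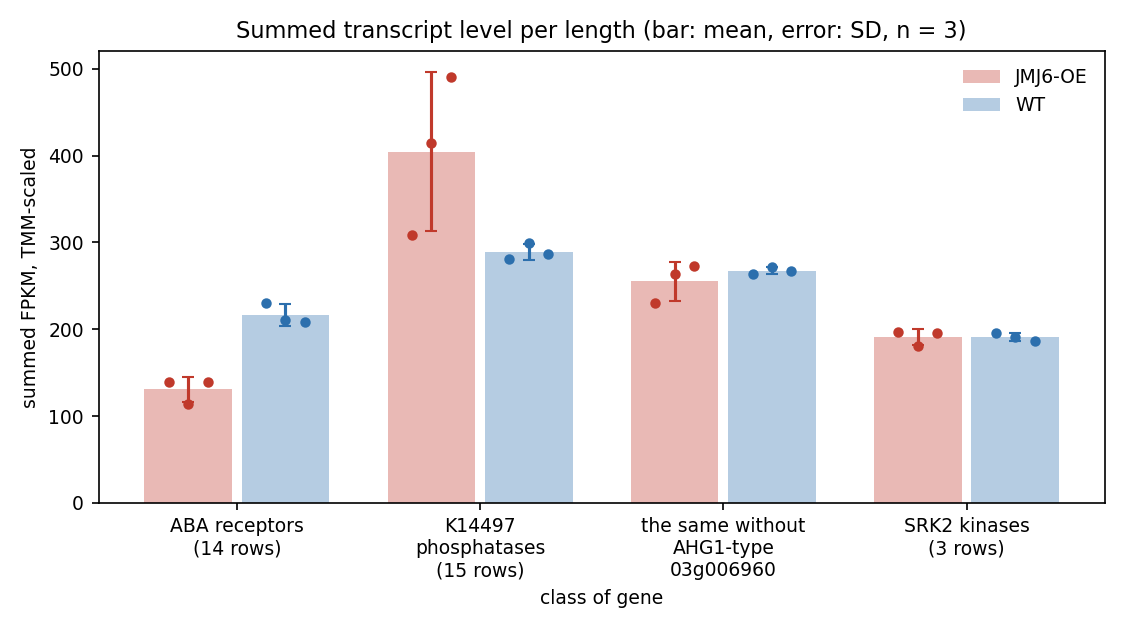
Summed TMM-scaled FPKM of 14 ABA receptor rows, 15 K14497 phosphatase rows, the same phosphatases without the AHG1 type, and 3 SRK2 kinases, with JMJ6-OE in red left of WT in blue. Bars are means, error bars SD and points the 3 libraries. Receptors are lower in JMJ6-OE, the rise of the phosphatases is lost without the AHG1 type, and the 3 SRK2 kinases are level on this scale.

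The PP2C rows outside clade A by number were the larger group, with 97 rows, of which 62 were tested, 11 rose and 12 fell. These are 17.7% and 19.4% of those tested, near the background of 17.5% higher and 16.8% lower. This count includes the PP2C51 row Solyc06g051940.3 described above. Without JMJ6-OE replicate 2, 4 of them were called higher and 7 lower. Without WT replicate 2, 5 were called higher and 7 lower, and 5 and 4 were called higher without JMJ6-OE replicate 3 and without WT replicate 3. Among all 86 tested members 9 were at least 2-fold lower and called, beside a background of 8.97% of all genes, and 5 at least 2-fold higher and called, beside 5.77%.

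The steepest decreases were in the 3 tested rows with the symbol At2g30020. That Arabidopsis locus is AP2C1, a phosphatase that inactivates mitogen-activated protein kinases and restrains wound responses. Solyc05g052520.3 had 15.9, 21.0 and 17.7 CPM in JMJ6-OE and 106.3, 122.5 and 137.9 CPM in WT, 6.71-fold lower in JMJ6-OE (a log2 change of -2.75 ± 0.14, adjusted p = 5.4e-05). It had the smallest adjusted p of all members.

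Solyc06g007190.3 had 2.17, 0 and 0.74 CPM in JMJ6-OE and 23.9, 28.9 and 35.2 CPM in WT (log2 fold change -4.91 ± 0.91, adjusted p = 0.0098). The transcript was close to absent in JMJ6-OE, so the size of the fold is loose, and the log2 fold change was -6.41 without JMJ6-OE replicate 1 and -4.30 without JMJ6-OE replicate 2. Solyc06g082080.3, described as PP2C 25, had 5.70, 7.58 and 5.52 CPM in JMJ6-OE and 15.8, 16.9 and 17.3 CPM in WT (log2 fold change -1.41 ± 0.16, adjusted p = 0.00086). All 3 decreases were called without any 1 library.

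Of the other decreases, PPC6-7 (Solyc01g100040.3, PP2C 34) had 4.40, 4.49 and 4.56 CPM in JMJ6-OE and 12.04, 11.2 and 11.8 CPM in WT, with little spread in either group (log2 fold change -1.38 ± 0.13, adjusted p = 0.00043). PLL1 (Solyc08g007000.3), a relative of the Arabidopsis meristem phosphatase POLTERGEIST, had 3.78, 3.27 and 2.67 CPM in JMJ6-OE and 8.12, 4.84 and 5.999 CPM in WT (log2 fold change -0.96 ± 0.25, adjusted p = 0.021). The call on PLL1 was lost in 3 of the 6 reduced fits, those without JMJ6-OE replicate 2, JMJ6-OE replicate 3 or WT replicate 1. The better expressed PLL1 row, Solyc08g077150.3, ran the other way without a call, with 113.4, 153.1 and 147.0 CPM in JMJ6-OE and 99.2, 108.4 and 114.3 CPM in WT (log2 fold change 0.36 ± 0.13, adjusted p = 0.065).

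Moderate decreases were found for Solyc07g066260.3 (At1g16220, log2 fold change -0.51 ± 0.10, adjusted p = 0.0091), Solyc05g053290.3 (At3g62260, -0.58 ± 0.13, adjusted p = 0.012) and Solyc10g049630.2 (At4g33920, -0.46 ± 0.11, adjusted p = 0.014). The last lost its call without JMJ6-OE replicate 2 and without WT replicate 2. PPH1 (Solyc03g082970.3), named after its values were seen, is the phosphatase that in Arabidopsis dephosphorylates the light-harvesting antenna of photosystem II. It had 64.0, 73.7 and 77.8 CPM in JMJ6-OE and 94.9, 90.7 and 83.8 CPM in WT (log2 fold change -0.32 ± 0.10, adjusted p = 0.041), and only 2 of 6 fits without 1 library called it.

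The strongest increases outside the ABA phosphatases were in Solyc07g062970.3 and Solyc04g079120.3. Solyc07g062970.3 (symbol At3g15260) had 211.6, 274.6 and 329.4 CPM in JMJ6-OE and 112.2, 94.9 and 91.2 CPM in WT, 2.73-fold higher in JMJ6-OE (a log2 change of 1.45 ± 0.17, adjusted p = 0.0012). Solyc04g079120.3 (At1g47380, PP2C 12) had 32.7, 41.3 and 45.2 CPM in JMJ6-OE and 11.9, 20.6 and 16.5 CPM in WT (log2 fold change 1.28 ± 0.21, adjusted p = 0.0046). PPC6-1 (Solyc05g055790.3, PP2C 33) had 16.6, 19.9 and 21.5 CPM in JMJ6-OE and 11.8, 13.5 and 10.5 CPM in WT (log2 fold change 0.70 ± 0.15, adjusted p = 0.010). In all 3 the groups were apart and the call held without any 1 library.

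The remaining increases were small and fragile. Solyc03g033340.3 (Os06g0717800) differed by 0.52 ± 0.12 on the log2 scale (adjusted p = 0.015) and lost its call without JMJ6-OE replicate 2 and without WT replicate 3. Solyc04g064500.3 (At1g43900, log2 fold change 0.41 ± 0.11, adjusted p = 0.024) was called in 2 of the 6 fits without 1 library. KAPP (Solyc01g079720.3), which in Arabidopsis binds receptor kinases such as CLAVATA1, differed by 0.30 ± 0.08 on the log2 scale (adjusted p = 0.026) and was called in 1. Solyc06g065610.3 (Os06g0597200, log2 fold change 0.41 ± 0.13, adjusted p = 0.038) was likewise called in 1. Of the well expressed rows without a call, Solyc01g111730.3 (At4g38520) showed a log2 difference of 0.15 ± 0.08 (adjusted p = 0.18), Solyc03g007270.3 (At5g53140) one of 0.11 ± 0.08 (adjusted p = 0.30) and Solyc08g006060.3 (At4g31860) one of 0.15 ± 0.10 (adjusted p = 0.27).

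**Figure D4:**
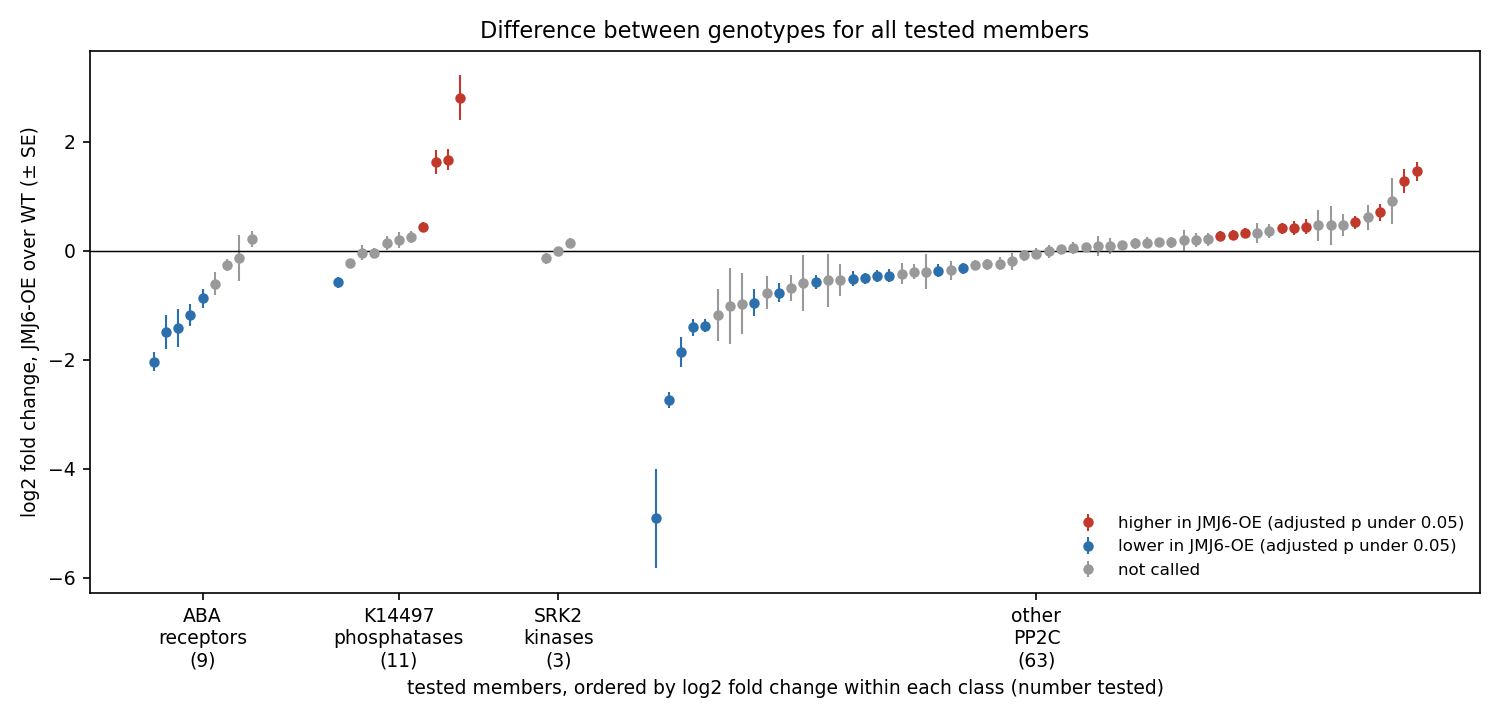
Log2 fold change of JMJ6-OE over WT for all 86 tested members with its standard error, ordered within each class, here with clade A taken by the orthology term K14497. Red points were called higher, blue points lower and grey points not called. Receptors lie mostly below 0, K14497 phosphatases run up to 2.81, kinases lie between -0.14 and 0.14, and the 63 other PP2C spread to both sides.

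The 35 rows with no count in any library were 3 receptors, 4 clade A phosphatases by number and 28 other PP2C. Of the members, 21 stood beside another member in the table's identifier order, at most 2 rows apart, in 9 groups. In 3 of the 9 groups a counted member stood beside silent ones, as in the AHG1 row of 4 on chromosome 3, and 2 groups had no counts at all. The deposited table gives no coordinates, so chromosomes were read from the identifiers.

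The rest of the ABA pathway was read from lists of genes. Of 12 tested synthesis genes, 6 fell and 1 rose, 50% and 8.33% beside the background of 16.8% lower and 17.5% higher. DESeq2 and limma-voom each called 5 lower and 1 higher. Some of the 6 decreases were fragile. Solyc04g071970.3 was called in 3 of the 6 fits without 1 library, Solyc04g071960.3 in 2 and Solyc08g080180.1 in 0. The other decreases were called in all 6 fits. Abscisic-aldehyde oxidase AAO3 (Solyc01g009235.1), which makes ABA in the last step, had 18.2, 16.4 and 11.4 CPM in JMJ6-OE and 33.4, 32.8 and 33.9 CPM in WT (log2 fold change -1.12 ± 0.17, adjusted p = 0.0029). The 9-cis-epoxycarotenoid dioxygenase row Solyc08g016720.1, of the enzyme that cleaves the carotenoid precursor, had 12.2, 9.81 and 8.38 CPM in JMJ6-OE and 23.2, 18.7 and 23.1 CPM in WT (log2 fold change -1.10 ± 0.17, adjusted p = 0.0031). FLACCA (Solyc07g066480.3), the cofactor sulfurase that activates the oxidase, had 33.3, 35.6 and 37.2 CPM in JMJ6-OE and 23.0, 24.9 and 25.8 CPM in WT (log2 fold change 0.53 ± 0.09, adjusted p = 0.0052). A second row with the symbol FLACCA, Solyc03g031420.1, fell, with 18.4, 17.03 and 12.05 CPM in JMJ6-OE and 25.3, 25.9 and 28.9 CPM in WT (log2 fold change -0.75 ± 0.17, adjusted p = 0.012), and was named after its values were seen.

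A dioxygenase row outside that list, Solyc07g056570.1, was much better expressed and ran the other way. Named after its values were seen, it had 132.4, 198.7 and 198.4 CPM in JMJ6-OE and 125.7, 106.7 and 125.1 CPM in WT (log2 fold change 0.57 ± 0.17, adjusted p = 0.036). It was called in 1 of the 6 fits without 1 library.

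Of the 4 tested breakdown genes, 1 rose and 1 fell, 25% each beside the background of 17.5% higher and 16.8% lower. The ABA 8'-hydroxylase CYP707A3 (Solyc04g071150.3), which inactivates the hormone, had 165.0, 207.0 and 236.9 CPM in JMJ6-OE and 67.9, 71.6 and 70.9 CPM in WT, 2.89-fold higher in JMJ6-OE (a log2 change of 1.53 ± 0.14, adjusted p = 0.00040). A second CYP707A3 row, Solyc02g084930.3, was far weaker and had 0.50, 0.71 and 0.59 CPM in JMJ6-OE and 2.50, 3.76 and 2.14 CPM in WT (log2 fold change -2.21 ± 0.33, adjusted p = 0.0027). The groups were apart for both CYP707A3 rows. A CYP707A1 row of this list, Solyc08g005610.3, was named after its values were seen. Its mean deposited level was 36.2 ± 9.49 FPKM in JMJ6-OE and 58.4 ± 9.96 FPKM in WT. For Solyc04g071150.3 these means were 30.7 ± 3.63 FPKM in JMJ6-OE and 12.2 ± 0.67 FPKM in WT. The CYP707A1 row leaned lower in JMJ6-OE, by -0.48 ± 0.24 on the log2 scale, but missed the threshold (adjusted p = 0.17), and its groups overlapped.

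Of 13 tested genes for ABA and anion transport, 5 fell, 38.5% beside 16.8%. None rose by edgeR, with 1 higher at an unadjusted p under 0.05 and 1 each by DESeq2 and limma-voom. The ABA exporter ABCG25 was represented by the adjacent rows Solyc11g018690.2 (log2 fold change -1.03 ± 0.15, adjusted p = 0.0025) and Solyc11g018680.1 (-1.001 ± 0.15, adjusted p = 0.0031). An NPF4.5 row (Solyc10g039290.2) had 10.01, 8.89 and 10.4 CPM in JMJ6-OE and 23.7, 19.8 and 13.7 CPM in WT (log2 fold change -0.96 ± 0.20, adjusted p = 0.010). Other tested rows with the symbol NPF4.5, named after their values were seen, went both ways. The weaker Solyc04g079520.3 fell (log2 fold change -1.08 ± 0.24, adjusted p = 0.013). The best expressed, Solyc04g079530.3, had 22.9, 27.9 and 26.5 CPM in JMJ6-OE and 22.1, 21.9 and 21.7 CPM in WT, without a call (0.24 ± 0.10, adjusted p = 0.12).

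Among genes downstream, a list meant for bZIP and B3 factors had 6 tested rows, of which 5 are ABI5- or ABF-type bZIP factors and none is a B3 factor. Of the 6, 2 rose and none fell by edgeR, DESeq2 or limma-voom, also at an unadjusted p under 0.05. The 2 are 33.3% of the tested rows, beside the background of 17.5% higher. The bZIP factor DPBF3 (Solyc10g081350.2) differed by 0.48 ± 0.15 on the log2 scale (adjusted p = 0.041). It was the only one of the 5 bZIP rows to be called by edgeR. The other, AIRP2 (Solyc02g078460.3, 0.40 ± 0.12, adjusted p = 0.036), is a RING protein and not a transcription factor. They were called in 2 and in 1 of the fits without 1 library.

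Of 20 tested dehydration-responsive genes 4 rose by edgeR, 20% beside a background of 17.5%, so this share was near that of all genes. DESeq2 called 6 higher and limma-voom 4. None fell by the 3 tools, also at an unadjusted p under 0.05. A dehydrin (Solyc04g082200.2), a hydrophilic protein that accumulates in drying tissue, had 352.0, 439.8 and 312.8 CPM in JMJ6-OE and 126.0, 127.0 and 151.6 CPM in WT (log2 fold change 1.45 ± 0.15, adjusted p = 0.00070). An LEA-14 row (Solyc04g078750.3) differed by 1.00 ± 0.16 on the log2 scale (adjusted p = 0.0039) and an HVA22I row (Solyc12g089290.2) by 1.26 ± 0.21 (adjusted p = 0.0041). Other tested rows with the symbol HVA22I, named after their values were seen, were not called and overlapped between genotypes. Solyc04g081340.3, the best expressed at means of 37.1 CPM in JMJ6-OE and 32.4 CPM in WT, differed by 0.20 ± 0.17 (adjusted p = 0.41). Solyc01g007780.3 differed by -0.62 ± 0.36 (adjusted p = 0.22). These lists were chosen with earlier results of the same libraries known and are no independent evidence of a direction.

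Markers of other tissues in the pericarp gave mixed values. The summed phloem markers overlapped between genotypes, with 5 of 11 tested rows higher in JMJ6-OE and 3 lower. These are 45.5% higher and 27.3% lower, beside the background of 17.5% and 16.8%. Of 8 tested xylem markers 2 were lower, and of 3 tested epidermis markers 1 was lower, the cuticle gene CD1 (Solyc11g006250.2). These are 25% and 33.3%, beside the background of 16.8% lower. The summed xylem and epidermis markers also overlapped between genotypes. Their part in the receptor and phosphatase differences was not tested.

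In the authors' deposited table, whose test is not given in the sources used here, 37 members had a false discovery rate under 0.05, beside 21.2% of all rows. The 34 members called by edgeR were all among them and had the same sign there. Both results come from the same libraries, so this is no independent check. The authors' deposited table gives a log2 fold change of -2.23 for the PYL4 row Solyc06g050500.2, on unscaled FPKM.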

How the data were processed

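RNA of tomato pericarp was sequenced on an Illumina HiSeq instrument from mRNA libraries, per the labels' protocols, with 3 libraries each of JMJ6-OE and WT, grouped by sample title. HISAT2 is the aligner named in the submitters' processing notes. The counter, build, annotation and strandedness were not given in the sources used here. Per the file headers, the deposited table holds the authors' raw count and FPKM of each gene in each library, with their log2 fold change, p-value and false discovery rate.

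Counts were tested as deposited. filterByExpr of edgeR 4.0.16 (minimum count 10) kept 20143 genes, TMM scaled the libraries, and the robust quasi-likelihood test of genotype alone (R 4.3.3) was adjusted by Benjamini-Hochberg at 0.05. Standard errors were taken as the absolute log2 fold change over the root of F. CPM uses TMM-scaled library sizes, and FPKM was summed as deposited or multiplied by the library's scaling factor. A chi-square over genes put replicate pairs 20.1 to 75.9 times apart relative to sampling noise, so none is a copy. In simulated counts for JMJ6-OE against WT (20222 genes) the test found 93.9% of 66 genes with a true 4-fold difference, 50.8% of 65 at 2-fold and 13.8% of 65 at 1.5-fold, and made 5 false calls. The simulation changed a far smaller share of genes than the 34.3% called in the data. Its rates therefore do not give the power of this comparison. Floors of 3 counts cover counting error only.

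The members and gene lists were chosen with earlier results of these data known. Named genes were every tested receptor, clade A PP2C and SRK2 row, up to 8 called rows each way and 4 uncalled rows with the highest levels of the other PP2C, and up to 3 called genes of each further list. The alternatives tried were DESeq2 1.42.0, limma-voom 3.58.1, RLE or upper-quartile scaling, other filters, the replicate number as a block, leaving out each library, and clade A by the term K14497. The last was added after seeing the data. Identifiers did not match the reference gene table, and no sequence was used.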

Additional observations from a re-analysis of the deposited data

How the results depend on the processing

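Against 14 members called higher and 20 lower, the calls were 15 and 22 by DESeq2, 13 and 20 by limma-voom, 14 and 20 with RLE scaling, 11 and 25 with upper-quartile scaling, 13 and 20 with no filter beyond 1 count, and 13 and 21 with a filter of 1 CPM in 3 libraries. Upper-quartile scaling moved the median log2 fold change of all genes by -0.064. With clade A taken by the term K14497, 4 of its rows were called higher and 1 lower, against 3 and 3 by number; the term takes other rows, which is the cause of the shift.

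Leaving out 1 library gave 6 to 16 members higher and 14 to 24 lower, 4 to 7 receptors lower, 2 to 4 clade A phosphatases higher and 3 lower, 4 to 12 other PP2C higher and 7 to 14 lower, and over all genes 2027 to 4169 higher and 2046 to 3962 lower. Fewer libraries were tested there, and the cause of the differences among these fits was not tested. Rows without a call changed sign when 1 library was left out, with log2 fold changes of -0.418 to 0.002 for Solyc03g095780.2, -0.07 to 0.03 for Solyc01g108280.3, -0.122 to 0.063 for Solyc06g076400.3 and -0.096 to 0.019 for Solyc07g040990.3. No called member that the text names by rule changed sign.

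Same-numbered libraries of the genotypes shared little beyond their number, with correlations of their deviations of 0.064, 0.032 and -0.06, and not every library correlated best with its own number. With the replicate number as a block, 11 members were called higher and 20 lower, 6 receptors lower, and 3024 genes higher and 2964 lower over the whole table. At this depth a row with no count could hold up to 0.0822 to 0.105 CPM, taken with unscaled library sizes.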
